A study of Homo sapiens with 3 samples.

Results

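The genes of MHC class I antigen presentation were followed in 3 RNA-seq libraries of RPE-1, an immortalised line of human retinal pigment epithelium that expresses telomerase. The 9 genes were taken by their symbols from the 58735 genes of the count table: the heavy chains HLA-B, HLA-C and HLA-E, the light chain B2M, the transporter subunits TAP1 and TAP2, the loading factor TAPBP, and the immunoproteasome subunits PSMB8 and PSMB9. All 3 libraries form 1 group, labelled siControl_no_induction, of cells that carry a GFP tag on Cetn2, a centriole protein, and a PLK4 gene under an rtTA-driven, doxycycline-responsive promoter. These cells were transfected with a scramble siRNA and PLK4 was not induced, so they are a control state and no comparison between treatments could be made. The labels do not say that the libraries came from separate cultures, so the spread between them may be technical.

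Class I molecules show fragments of cytosolic proteins to CD8 T cells. Proteasomes cut the proteins, the TAP transporter moves the peptides into the endoplasmic reticulum, and tapasin helps to load them onto a heavy chain paired with beta-2 microglobulin. Interferon raises the transcription of most of these genes, and the catalytic proteasome subunits are then replaced by inducible counterparts. Epithelial cells outside the immune system commonly keep a basal level of the pathway.

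The libraries held 49279692, 60040029 and 46625774 counts in libraries 1, 2 and 3. Values are given as CPM, the share of a library's TMM-scaled total scaled up to a common size, and as RPKM, which is CPM per kilobase of a gene's annotated exons. Library 1 stood apart: the mean chi-square statistic per degree of freedom over genes was 98.4 between libraries 1 and 2, 65.3 between 1 and 3, and 10.1 between 2 and 3. Of the 9 pigment epithelium markers 5 were detected, where detection means 1 CPM or more in every library. The transcription factors OTX2 and MITF were the highest of them at 17.9 ± 0.781 and 21.9 ± 1.81 CPM (SD, n = 3), and the secreted SERPINF1 and the pigment gene PMEL reached 1.23 and 1.95 CPM. The visual cycle gene RPE65 had 8, 6 and 0 counts, RLBP1 had 1, 7 and 3, and TYR and TTR had none. Of the 5 epithelial and mesenchymal markers 4 were detected, with VIM at 1518 ± 64.2 RPKM, FN1 at 570.4 ± 12.9 and KRT18 lowest at 76.4 ± 12.6 (SD, n = 3), while CDH1 had 0, 5 and 5 counts. Of the 8 markers of blood and immune cells, which carry much class I RNA, 3 were detected, and the list summed to 12.3, 11.1 and 11.03 CPM, led by LCP1 (4.45 CPM) and CORO1A (4.33 CPM). CD3E and HBB had no counts, CD14 had 2, 9 and 4, and LYZ had 2, 45 and 40. PTPRC stood at 2.95, 1.53 and 1.71 CPM.

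Promoter letters are shown because most of the genes with a promoter window hold a motif that interferon regulatory factors read. Windows from 250 bases before to 50 bases after a start were available from RefSeq (GRCh38.p14) for 8 of the 9 genes, in 10 windows, and HLA-E had none in that table. The core of the interferon regulatory factor (IRF) site was searched as AANNGAAA on both strands. It occurred in 7 of the 10 windows and in 7 of the 8 genes, against 22.8% of 35114 promoter windows of the same length. The stretches below hold the matches that end upstream of the start, with up to 20 bases on each side, ending at the start at the latest. They read 5′ to 3′ on the gene's own strand, and capitals mark the match, which reads TTTCNNTT where it lies on the opposite strand.
HLA-B (chr6:31357307-31357354, minus strand): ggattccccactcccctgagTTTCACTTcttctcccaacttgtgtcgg
HLA-C (chr6:31272216-31272263, minus strand): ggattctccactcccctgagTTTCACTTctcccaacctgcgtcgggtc
B2M (chr15:44711355-44711408, plus strand): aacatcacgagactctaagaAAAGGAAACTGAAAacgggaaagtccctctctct
TAP1 (chr6:32853805-32853858, minus strand): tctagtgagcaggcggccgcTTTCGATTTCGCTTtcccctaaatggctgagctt
TAP2 (chr6:32838768-32838821, minus strand): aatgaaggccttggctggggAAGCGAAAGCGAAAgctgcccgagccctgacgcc
TAPBP (chr6:33314079-33314116, minus strand): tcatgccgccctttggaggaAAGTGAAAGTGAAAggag

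HLA-B and HLA-C each held 1 match, and B2M, TAP1, TAP2 and TAPBP each held 2 overlapping ones spaced by the same step. The first 31 bases of the HLA-B and HLA-C stretches, a length chosen after they were seen, were identical at 29 positions. The second of the PSMB8 windows held 2 matches, 1 across its start and 1 just after it, and the single PSMB9 window held none. By their RefSeq starts, 488 bases apart, TAP1 and PSMB9 lie back to back on chromosome 6. The TAP1 matches begin 354 and 360 bases upstream of that PSMB9 start, outside the PSMB9 window. The annotated span of PSMB9 used below for its exon length is longer and encloses TAP1. The CCAAT box, which the factor NF-Y reads, was searched as CCAAT on both strands and occurred in 5 of 10 windows, against 34.6% of all windows. The TAP1 and PSMB9 windows overlap and their CCAAT letters are the same bases. An NF-kB pattern (GGGA, any 4 bases, CC, both strands) occurred in 5 of 10 against 25.6%, and an interferon-gamma pattern (GAS), TTCNNNGAA, in 2 of 10 against 7.66%. The patterns were chosen after the promoters had been seen, the NF-kB matches of HLA-B and of B2M overlap across strands, and a match is a description of letters, not of binding.

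**Figure D1:**
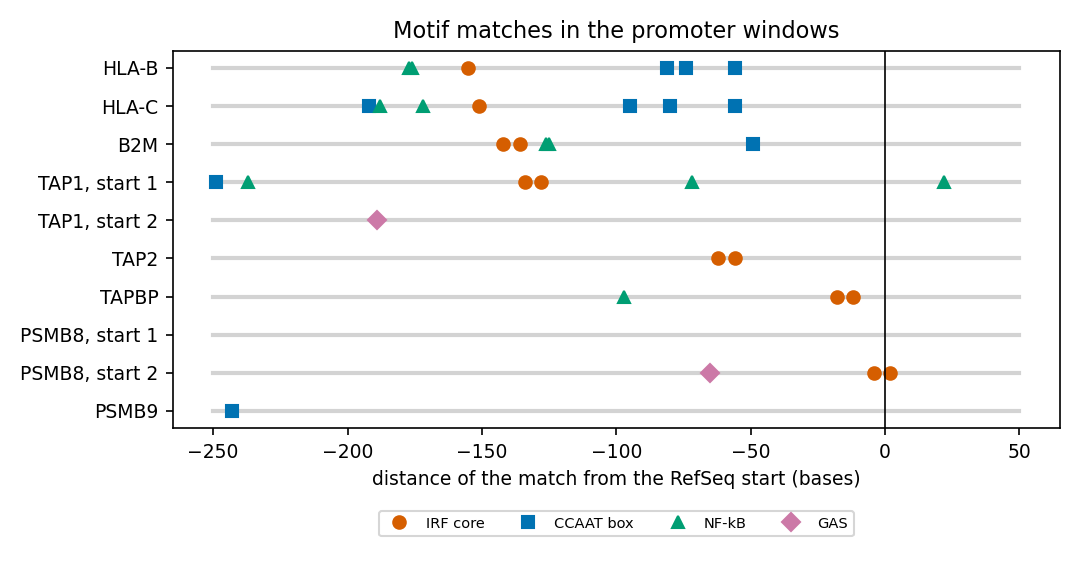
Positions of motif matches (x axis, bases from the RefSeq start, which is the vertical line) in the promoter windows of 8 class I presentation genes (y axis, 1 grey line per window). IRF core matches lie upstream of the starts of HLA-B, HLA-C, B2M, TAP1, TAP2 and TAPBP, lie at the second start of PSMB8, and are missing from the window of PSMB9.

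The 3 heavy chain genes stood among the well-expressed genes of the cells. HLA-C (ENSG00000204525, hg38 chromosome 6, 31268749 to 31272130), a classical heavy chain that also engages receptors of natural killer cells, had 306, 363 and 343 CPM in libraries 1, 2 and 3. HLA-B (ENSG00000234745, chromosome 6, 31269491 to 31357188), the most polymorphic classical heavy chain, had 244, 266 and 247 CPM. HLA-E (ENSG00000204592, chromosome 6, 30489467 to 30494205), a nonclassical heavy chain that presents leader peptides of other class I chains, had 209, 236 and 225 CPM. All 3 genes were highest in library 2 and lowest in library 1. Per kilobase HLA-C stood at 135 ± 11.5 RPKM, HLA-B at 82.7 ± 4.05 and HLA-E at 75.1 ± 4.65 (SD, n = 3), ranks 205, 391 and 445 among 11508 detected protein-coding genes. In bulk RNA such levels cannot tell fewer expressing cells from less RNA per cell.

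HLA-B was lower than HLA-C per kilobase in each library, at 0.654, 0.603 and 0.591 of its level. That is 1.63-fold below (exact sign-flip p = 0.25, the smallest that 3 libraries allow, adjusted p = 0.271 over 13 gene pairs). HLA-C exceeded HLA-E 1.79-fold and HLA-B exceeded HLA-E 1.10-fold, each in 3 of 3 libraries with the same exact p. These gaps depended on the length used. On principal transcripts HLA-B was 1.345-fold below HLA-C, HLA-C exceeded HLA-E 2.55-fold and HLA-B exceeded HLA-E 1.90-fold. On the longest transcripts the log2 ratio of HLA-B over HLA-C was only -0.136, and the library ranges of the HLA-C and HLA-B levels overlapped. Ratios of heavy chains carry a limit of mapping, because their sequences are alike and the alleles of these cells may differ from the genome's. Of all 50-base stretches of the principal transcript, 2.54% for HLA-B, 6.79% for HLA-C and 5.13% for HLA-E occur exactly in a transcript of another gene. At 100 bases the shares were 0% for HLA-B, 0.278% for HLA-C and 0.600% for HLA-E. The sources used here do not give the read length or how reads with more than 1 alignment were handled.

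The longest run that HLA-B and HLA-C share is shown because a shorter read from it could be assigned to either gene. It covers 66 bases in capitals, within exon 3 of both, which codes for part of the peptide-binding groove, with 12 bases of each gene around it (GENCODE release 29, hg38).
HLA-B (chr6:31356289-31356378, minus strand): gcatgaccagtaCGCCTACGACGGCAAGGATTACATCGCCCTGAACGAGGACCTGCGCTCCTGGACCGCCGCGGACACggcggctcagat
HLA-C (chr6:31271195-31271284, minus strand): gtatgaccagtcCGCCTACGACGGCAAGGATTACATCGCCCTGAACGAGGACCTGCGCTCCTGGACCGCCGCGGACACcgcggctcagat

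B2M (ENSG00000166710, chromosome 15, 44711487 to 44718877), the light chain that pairs with the classical heavy chains and HLA-E, was the most counted of the 9 genes. It had 842, 725 and 759.5 CPM, highest in library 1, where the 3 heavy chains were lowest. None of the 50-base stretches of its principal transcript occurs in an annotated transcript of another gene. Per kilobase B2M stood at 128 ± 9.84 RPKM on the union of its annotated exons, which is 6079 bases long, but at 455 ± 35.1 on its principal transcript of 1705 bases. Its place relative to HLA-C turned with that choice. On the union it was 0.948 of HLA-C and higher in 1 of 3 libraries (log2 ratio -0.08, exact sign-flip p = 0.75). On the principal transcript it was 2.07-fold HLA-C, at 2.48, 1.80 and 1.99 in the 3 libraries. B2M exceeded HLA-B 1.54-fold and HLA-E 1.70-fold on the union, in 3 of 3 libraries (exact p = 0.25 each), and 2.79-fold and 5.29-fold on the principal transcripts.

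TAP1 and TAP2 encode the subunits of the peptide transporter, and TAP1 was the more abundant RNA as counted. TAP1 (ENSG00000168394, chromosome 6, 32845209 to 32853978) had 48.9, 86.7 and 77.3 CPM, low in library 1 and higher in both others. TAP2 (ENSG00000204267, chromosome 6, 32821833 to 32838780) had 20.6, 18.0 and 20.4 CPM, and was lowest in library 2. TAP1 stood at 14.8 ± 4.10 RPKM and TAP2 at 3.08 ± 0.223 (SD, n = 3). TAP1 exceeded TAP2 3.16-fold, 6.39-fold and 5.05-fold per kilobase in libraries 1, 2 and 3, a mean of 4.67-fold (exact sign-flip p = 0.25). On principal transcripts the ratio was 2.96-fold. The TAP2 count is uncertain, since 80.2% of the 50-base stretches of its principal transcript also occur in transcripts of other genes, chiefly AL669918.1. That gene shares 32.3% of the exon length of TAP2 on the same strand. It had 0, 1 and 2 counts, although 98.45% of its own exon length is shared with TAP2 or HLA-DOB. Few if any reads in shared exons were thus credited to AL669918.1. Whether such reads were left out or given to TAP2 is not stated. If they were left out, the TAP2 count is too low, and its order against TAP1 may not hold.

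TAPBP (ENSG00000231925, chromosome 6, 33299694 to 33314387) encodes tapasin, which bridges the transporter and empty class I molecules. It had 222, 223 and 208 CPM, or 43.1 ± 1.63 RPKM (SD, n = 3), the steadiest of the 9 genes with a coefficient of variation of 3.79%. TAPBP exceeded TAP1 4.32-fold in library 1, against 2.44-fold and 2.56-fold in libraries 2 and 3 (mean 3.001-fold, exact sign-flip p = 0.25). On principal transcripts the ratios were 7.12, 4.03 and 4.22, a mean of 4.95-fold. It exceeded TAPBPL, the gene of the related peptide editor TAPBPR, 42.2-fold (log2 ratio 5.40 ± 0.07, higher in 3 of 3 libraries, exact p = 0.25). TAPBPL had 152, 208 and 149 counts.

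The immunoproteasome subunits were expressed, but each lay below the constitutive subunit it replaces. PSMB8 (ENSG00000204264, chromosome 6, 32840717 to 32844703), the chymotrypsin-like inducible subunit, had 46.0, 55.3 and 54.9 CPM, or 17.4 ± 1.75 RPKM. PSMB9 (ENSG00000240065, chromosome 6, 32844136 to 32859585), the inducible counterpart of PSMB6, had 17.8, 13.15 and 13.2 CPM, or 4.80 ± 0.870 RPKM (SD, n = 3). PSMB8 was lowest and PSMB9 highest in library 1. Per kilobase PSMB8 was 0.253, 0.199 and 0.216 of PSMB5, which is 4.52-fold below. PSMB9 was 0.0874, 0.0572 and 0.0595 of PSMB6, which is 14.98-fold below. PSMB10, the inducible counterpart of PSMB7, was not among the 9 genes. It had 375, 584 and 347 counts and stood 14.35-fold below PSMB7, although 34.8% of its exon length is shared with AC040162.1 on the same strand. All of these ratios had the same sign in 3 of 3 libraries (exact sign-flip p = 0.25 each). On principal transcripts the gaps were 2.31-fold for PSMB8, 6.48-fold for PSMB9 and 17.2-fold for PSMB10. PSMB8 exceeded PSMB9 3.64-fold, at 2.65, 4.31 and 4.25 in libraries 1, 2 and 3.

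Part of the exons of some of these genes is annotated in a gene on the opposite strand. That part was 20.6% for PSMB8 (PSMB8-AS1 and PSMB9), 17.8% for HLA-B (AL671883.2), 9.49% for TAP1 (PSMB8-AS1) and 4.53% for PSMB9 (PSMB8). The strand setting of the counting is not given, so reads of these stretches may not be told apart from the partner's. If such reads were left out, the counts of these genes are too low. The gaps of PSMB8 below PSMB5 and of HLA-B below HLA-C would then be overstated. The antisense gene PSMB8-AS1 had 66, 97 and 78 counts, and AL671883.2 had 18, 31 and 27. On the same strand HLA-B shared 1.15% of its exon length with HLA-C, whose span it encloses, and PSMB9 5.66% with PSMB8-AS1.

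**Figure D2:**
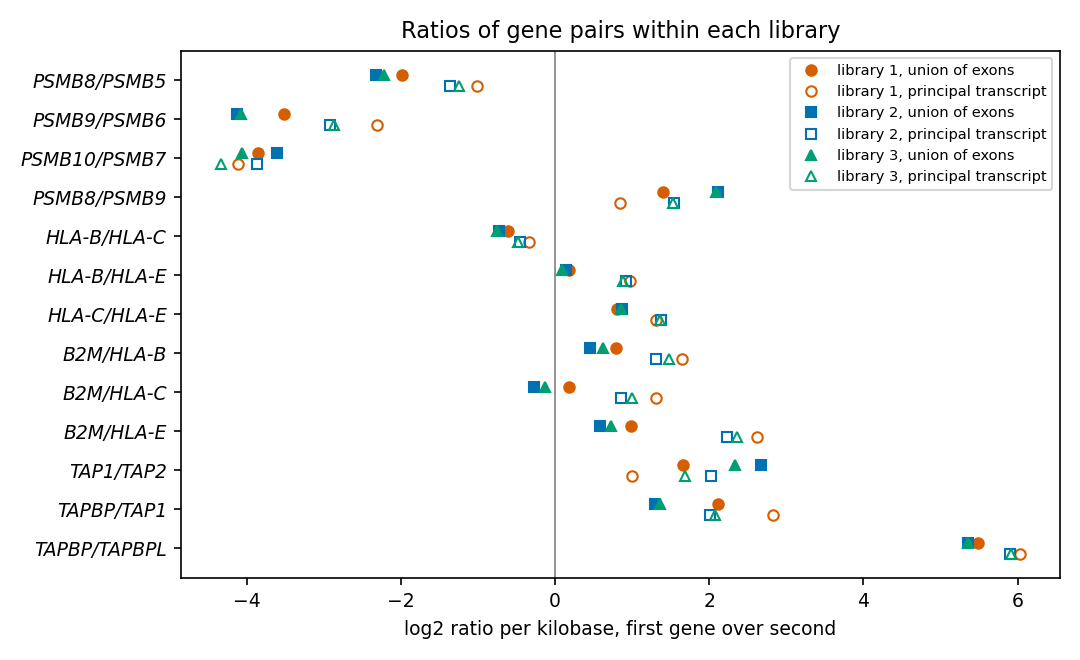
Log2 ratio per kilobase of the first gene over the second (x axis) for 13 gene pairs (y axis) in each of the 3 libraries, with the union of exons as length (filled) and with the principal transcript (open). The 3 inducible proteasome subunits lie left of 0 against PSMB5, PSMB6 and PSMB7 in every library, and only B2M over HLA-C lies on both sides of 0.

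On the union of exons the order of levels was HLA-C, B2M, HLA-B, HLA-E, TAPBP, PSMB8, TAP1, PSMB9 and TAP2. The ranges over the libraries overlapped between HLA-C and B2M, whose order changed from library to library, and between PSMB8 and TAP1. Within each library PSMB8 was above TAP1, at 15.35, 18.45 and 18.3 RPKM against 10.2, 18.0 and 16.1 RPKM. The ranges of the other neighbours did not overlap. On principal transcripts B2M came first (455 RPKM), followed by HLA-C (219.7), HLA-B (163), TAPBP (115), HLA-E (85.9), PSMB8 (46.3), TAP1 (24.0), PSMB9 (18.8) and TAP2 (7.88). There TAPBP passed HLA-E, and TAP1 and PSMB9 overlapped. TAP2, whose count may be too low, was last on both lengths.

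**Figure D3:**
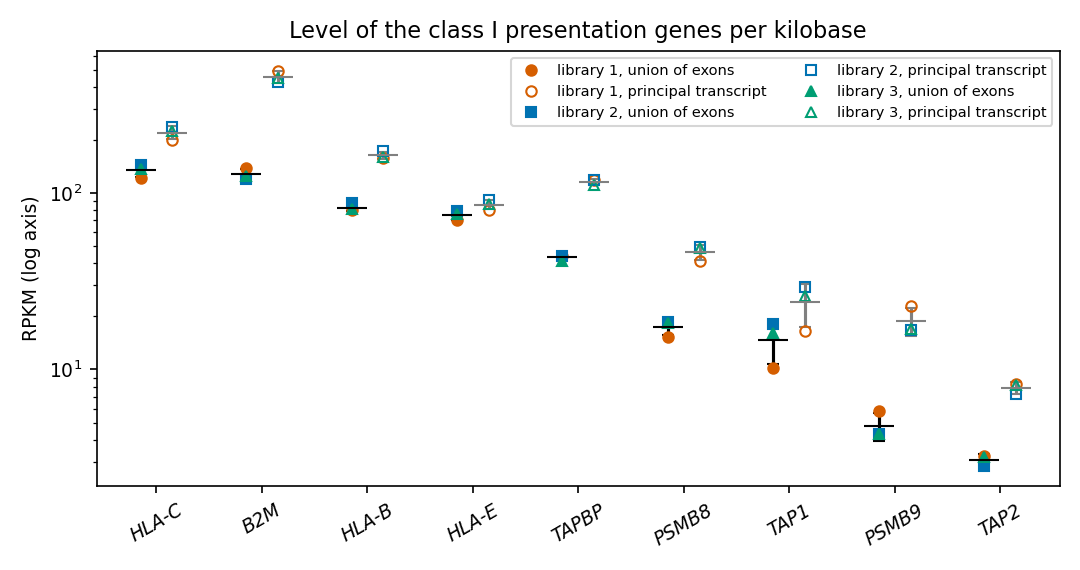
RPKM on a log axis (y) of the 9 genes (x) in each library, with filled symbols for the union of annotated exons and open symbols for the principal transcript; bars are mean ± SD over 3 libraries. B2M and PSMB9 move farthest up with the length. B2M is at 455 RPKM on its principal transcript against 128 on the union, and PSMB9 is at 18.8 against 4.80. TAP2 is lowest on both as counted, and its count may be too low.

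Together the 9 genes took 0.196 ± 0.00427% of all counts (SD, n = 3), with summed levels of 1956, 1987 and 1949 CPM. All 9 genes varied between libraries beyond counting noise in a chi-square test of the 3 counts against the scaled library sizes, with Benjamini-Hochberg adjustment over 16293 genes. This is little to read from, because 68.6% of all genes tested passed, and 84.6% of the 8394 genes with a mean count at least that of PSMB9. Counting error was small for these genes, from 0.499% for B2M to 3.63% for PSMB9, against coefficients of variation from 3.79% for TAPBP to 27.7% for TAP1. When the test allowed an extra coefficient of variation of 0.05, only TAP1 and PSMB9 of the 9 passed, against 32.5% of all genes (or 29.7% of those counted at least as deeply as PSMB9).

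TAP1 and PSMB9 were the most variable of the 9, and library 1 set both apart in opposite directions. TAP1 in library 1 was 0.596 of its mean in libraries 2 and 3 (chi-square test, adjusted p = 2.19e-120, or 1.83e-10 with the extra allowance). PSMB9 in library 1 was 1.35 times that mean (adjusted p = 9.49e-11, or 0.00136 with the allowance). In libraries 2 and 3 alone 7 of the 9 genes passed, against 28.1% of all genes. That share includes genes with far fewer counts, and it was not computed for genes counted as deeply as these. Between libraries 2 and 3 the PSMB9 spread no longer exceeded counting noise (13.15 against 13.2 CPM, adjusted p = 0.950). Nor did the PSMB8 spread (55.3 against 54.9 CPM, adjusted p = 0.857). TAP1 still did (86.7 against 77.3 CPM, adjusted p = 1.79e-06). The TAP2 spread rested on library 2 (adjusted p = 0.00543, or 0.844 without it), as did that of HLA-B (1.45e-14, or 0.413 without it), and the TAPBP spread on library 3 (6.40e-07, or 0.846 without it).

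The genes did not move as a block. Of the 9 genes, all called, 5 were lowest in library 1 (HLA-B, HLA-C, HLA-E, TAP1 and PSMB8). Of all 11182 called genes, the like base for the 9, 5447 were lowest there (33.4% of all tested genes, called or not). B2M, TAP2 and PSMB9 were highest in library 1, as were 4543 of the 11182 called genes (27.9% of all tested genes, called or not). HLA-B and TAP2 differed little between libraries 1 and 3, at 244 against 247 CPM and 20.6 against 20.4 CPM. For 6 of the 9 genes the value in library 1 lay farthest from the rest, and for 66.4% of all called genes. The median log2 ratio of library 1 over the mean of libraries 2 and 3 was -0.07 over the 9 genes and -0.02 over all genes tested. B2M and PSMB9 stood at 1.13 and 1.35 times their mean in the other libraries, while HLA-C and PSMB8 stood at 0.867 and 0.835. What sets library 1 apart was not tested.

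**Figure D4:**
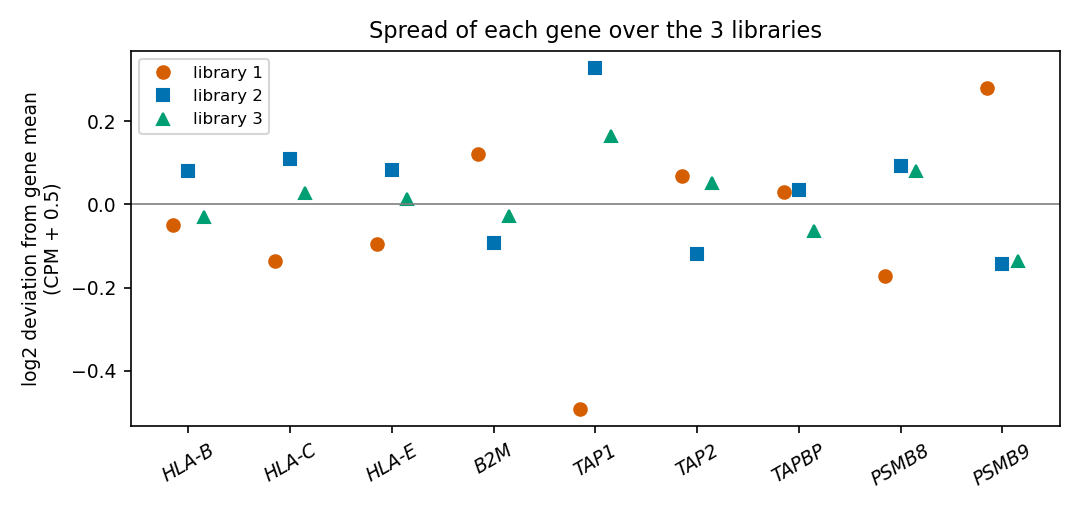
Log2 deviation of each of the 9 genes (x axis) from its own mean over the libraries (y axis, on CPM + 0.5), 1 symbol per library. TAP1 in library 1 lies farthest from its mean (-0.49), PSMB9 in the same library lies above (0.28), and the other genes stay closer to 0.

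The genes around the pathway were chosen with earlier results of these data known, and their call counts stand beside the 68.6% of all genes. Of 8 further heavy chains of the class I family 6 were detected, and 5 of the 6 tested varied beyond counting noise. HLA-F was lowest at 10.1, 13.55 and 12.8 CPM. HLA-G, known from trophoblast, had 0, 2 and 2 counts, and the lipid-presenting CD1D had none. MICA, a stress ligand of natural killer cells, reached 64.4 CPM.

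Genes of peptide loading and trimming were all detected (10 of 10, 8 called), and the median was 43.1 RPKM for the 9 class I genes, against 20.8 for this list and 6.09 for detected protein-coding genes. CALR, the chaperone calreticulin of the loading complex, was highest per kilobase, with 1664, 1377 and 1377 CPM, and it was higher in library 1. HSPA5, the chaperone BiP, came next per kilobase at 177 ± 4.37 RPKM (SD, n = 3). Of 13 genes of the proteasome core and its activators all were detected and 10 were called. Of those 10, 7 were lowest in library 1, against 5447 of all 11182 called genes. PSMB5, the constitutive subunit that PSMB8 replaces, had 107, 164 and 149.9 CPM, lowest in library 1 like PSMB8. PSMB4 was the highest of that list per kilobase.

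Of 15 factors that control class I transcription 14 were detected and 13 were called. NLRC5, the class I transactivator, had 35.2, 49.8 and 41.2 CPM. IRF1, an activator bound at the IRF site, had 26.6, 27.6 and 26.95 CPM, with a spread within counting noise (adjusted p = 0.599 by chi-square). STAT2, which carries the interferon signal, was highest per kilobase, at 221 CPM, and RFXAP was the lowest detected per kilobase at 3.795 CPM. IRF9, the DNA-binding partner of STAT2, was below detection in library 3 with 2.60, 1.05 and 0.770 CPM. It was highest in library 1 (chi-square test, adjusted p = 3.25e-14), although 48.4% of its exon length is shared with AL136295.5 on the same strand.

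All 10 interferon receptors, kinases and inhibitors were detected, and 6 were called, all 6 lowest in library 1. Of all 11182 called genes 5447 were lowest in that library. JAK1, the kinase shared by the interferon receptors, led per kilobase at 192 CPM, IFNGR2 came next at 38.5 and IFNAR2 was last at 7.89 CPM. SOCS3, a feedback inhibitor, varied most, at 17.2, 24.7 and 22.3 CPM. Of 20 interferon-stimulated genes 13 were detected, with a median of 9.17 RPKM, and 12 of the 15 tested were called. Of these 12, 5 were lowest and 6 highest in library 1, against 5447 and 4543 of all 11182 called genes. GBP1, a guanylate-binding protein, was highest at 199, 194 and 189.9 CPM, IFIT3, an antiviral gene and the next per kilobase, had 74.6, 56.4 and 61.4 CPM, and OAS2, a sensor of double-stranded RNA, was the lowest detected at 4.31, 6.03 and 5.60 CPM. CXCL9 and RSAD2 had no counts, CXCL10 had 0, 1 and 0, MX2 had 7, 1 and 0, and IDO1 had 3, 0 and 5. MX1, at 26, 39 and 25 counts, and IFI27, at 67, 77 and 46, were below detection too.

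**Figure D5:**
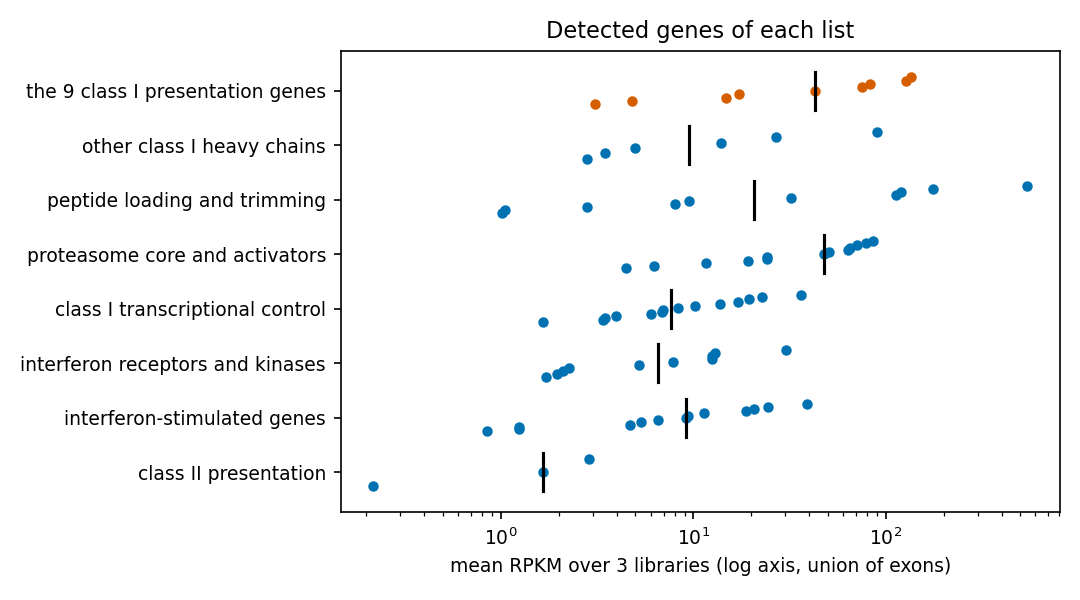
Mean RPKM over the 3 libraries (x axis, log scale, union of exons) of the detected genes of each list (y axis), with the median as a black bar. The 9 class I genes have a median of 43.1 RPKM, near the 47.6 of the proteasome list and above the 9.17 of the interferon-stimulated genes, and only 3 class II genes were detected.

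The genes whose pattern over the 3 libraries was most like the median of the 9 were VPS26B, RANBP3, MBOAT7, ELF4 and PTBP1. They were taken from 6535 called genes whose counts averaged 1000 or more, by the root mean square difference of log2 deviations, which was 0.0148 for VPS26B and 0.0150 for PTBP1. VPS26B had 62.0, 67.9 and 64.7 CPM. With 3 libraries such likeness is a description only, and the median hides that TAP1 and PSMB9 ran against each other.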

How the data were processed

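Poly(A) RNA was sequenced from 3 libraries of 1 group. The authors deposited raw counts, 1 whole number of reads for each gene and library. Per the submitters' processing notes the tools were cutadapt 1.16, STAR 2.5.2a and featureCounts 1.6.2 and the build was hg38, and neither their roles nor their settings are listed. Annotation, strand setting, read length and the handling of reads with more than 1 alignment are likewise not given. A further 6 per-sample columns of the table fit none of the labels and were left unused. All 58735 gene identifiers matched GENCODE release 29, which gave positions and exon lengths.

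TMM factors came from edgeR 4.0.16 in R 4.3.3, with DESeq2 1.42.0 size factors as an alternative. The spread of each gene was tested by chi-square (scipy 1.17.1, 2 degrees of freedom) over the 16293 genes whose counts averaged 10 or more, called at 0.05 after Benjamini-Hochberg adjustment. The script was checked on simulated counts whose noise was counting noise alone. That check does not cover the wider spread between these libraries. Ratios used a pseudocount of 0.5 count. The principal transcript is the longest one with the APPRIS principal and CCDS tags, a length added after the data were seen. Counting errors and the limit of 3 counts for a count of 0, which is 0.0618, 0.0494 and 0.0641 CPM in the 3 libraries, describe counting error alone, because reads without molecular tags can be copies of 1 molecule.

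The 9 genes and all lists were chosen with earlier results of these data known. Genes named were the 9, the members of 13 pairs and, per list, the highest 2, the lowest detected, the most variable called and those below detection, and the 5 most like the median pattern. Some genes that this rule names are not reported here. NLRC5, IRF1 and the genes that share exons were chosen after their values were seen.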

Additional observations from a re-analysis of the deposited data

How the results depend on the processing

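No paired analysis was possible because the labels give 1 group. Of 268 recomputed values, 232 kept their direction and their side of the threshold, or moved by less than the spread between libraries. The count of genes with spread beyond counting noise (11182) ranged from 4581 to 9992 when 1 library was left out, lowest without library 1, and was 5302 with an extra coefficient of variation of 0.05. The count among the 9 class I genes was 7 to 8 with a library left out and 2 with the extra allowance. Other size factors, library totals, the likelihood-ratio test and no filter on low counts changed no call among the 9. RPKM depends on length. On the longest transcript the means were 163 for HLA-B, 179.5 for HLA-C, 85.9 for HLA-E, 323 for B2M, 24.0 for TAP1, 3.46 for TAP2, 58.0 for TAPBP and 21.9 for PSMB8. On the principal transcript they were 163, 219.7, 85.9, 455, 24.0, 7.88, 115 and 46.3 for the same genes and 18.8 for PSMB9. The log2 ratio of B2M over HLA-C (-0.08) became 1.20 without length, 0.85 on the longest transcript and 1.05 on the principal transcript, because the union of B2M exons is long, and it ranged from -0.205 to 0.025 with 1 library left out. No other gene pair changed its sign.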

Other observations

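Class II presentation, which serves professional antigen-presenting cells, was mostly below detection in these libraries. Of 13 class II genes 3 were detected, and the 9 class I genes summed to 1956, 1987 and 1949 CPM, against 23.3, 22.1 and 20.3 CPM for the class II list. CTSS, a lysosomal protease also found outside class II presentation, was highest at 13.3, 11.7 and 11.4 CPM. HLA-DMA, of the class II peptide editor, had 5.03, 4.13 and 3.42 CPM. CIITA, the class II transactivator and a relative of NLRC5, had 199, 289 and 218 counts. HLA-DRA had 0, 7 and 3 counts, HLA-DRB1 0, 14 and 1, HLA-DPA1 3, 20 and 4, and HLA-DPB1 0, 0 and 1. HLA-DQA1, HLA-DQB1 and HLA-DOA had none, HLA-DOB had 0, 2 and 4, HLA-DMB 9, 12 and 5, and CD74, the invariant chain, 31, 40 and 19. CTSS and HLA-DMA were the 2 genes called among the 4 tested. Both were highest in library 1, as were 4543 of all 11182 called genes.

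CD274, which encodes the inhibitory ligand PD-L1, had 46.95, 34.4 and 34.9 CPM, higher in library 1 like PSMB9 and B2M (chi-square test, adjusted p = 1.94e-28). It was chosen after its values were seen.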
